A study of Rattus norvegicus with 42 samples.

Results

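This comparison asked what tissue plasminogen activator (tPA) left in the blood of rats that had no stroke. It set the 6 arrays of rats given tPA without middle cerebral artery occlusion (MCAO) against the 6 arrays of naive rats, which makes 12 of the 42 arrays of the series. Members were chosen by array title, and every probe set entered except the control probe sets of the array. All rats were male Sprague-Dawley rats of 280 to 350 g, and each array holds the whole blood of 1 rat drawn at 24 h. The tPA rats received tPA at 3.3 mg/kg at 3 h, and the naive rats received none. The study's methods describe recombinant human tPA given into the peritoneum, and no group that received a vehicle injection, so tPA and the injection cannot be told apart. All rats were under isoflurane for the blood draw. The methods do not state whether the tPA rats without MCAO were anesthetised when tPA was given. For that reason the 6 rats of the anesthesia group, which had isoflurane but neither tPA nor MCAO, are given as a further set of values where they bear on a result.

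tPA is a serine protease that turns plasminogen into plasmin, the enzyme that dissolves fibrin clots. It also binds receptors such as annexin A2 and LRP1 on cells, and the liver clears it quickly from the circulation. Whole blood RNA comes from leukocytes, platelets and young red cells, the reticulocytes, which still carry globin and heme synthesis transcripts. In such bulk samples, fewer cells of a type and less RNA per cell cannot be told apart. Defining markers of red cells, neutrophils, monocytes, T cells, B cells, NK cells and platelets, where measured, lay above the dim range, with 3 of 4 red cell and 2 of 4 B cell markers measured and gene means between log2 6.03 and 14.6 over both groups. The 5 measured genes of brain, liver, endothelium, fat and heart had means between 2.24 and 4.23.

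The arrays themselves differed between the groups. The hybridization controls bioB, bioC and bioD are labelled bacterial transcripts added to every array in fixed amounts. Their mean over 14 probe sets was 11.16 ± 0.747 log2 on the tPA arrays and 11.98 ± 0.241 on the naive arrays (SD, n = 6 each). The difference was -0.816 (exact permutation test, two-sided, p = 0.00866). The tPA arrays lay between 9.716 and 11.69 and the naive arrays between 11.58 and 12.32, so that only naive 5, the lowest of its group at 11.58, lay within the range of the tPA arrays. Array 2 of the tPA group stood apart at 9.716, and without it the difference was -0.526 (exact p = 0.0108). Each of the controls was lower on the tPA arrays, by 1.04 for bioB, 0.915 for bioC and 0.383 for bioD, whereas cre, the brightest control, had a difference of -0.0942 (exact p = 0.132). Anesthesia arrays had a control level of 12.2 ± 0.221. The tPA arrays differed from them by -1.06 (exact p = 0.00216), and by -0.124 for cre (exact p = 0.00433). Both gaps were wider than those to the naive arrays. The 3' minus 5' signal of the Gapdh and beta-actin controls, a sign of RNA integrity, was 2.94 ± 0.392 on the tPA arrays and 2.68 ± 0.178 on the naive arrays, a difference of 0.266 (exact p = 0.145). It was 0.122 without tPA array 2 (exact p = 0.288) and 0.36 without tPA array 5 (exact p = 0.0281). Between the tPA and the anesthesia arrays this difference was 0.472 (exact p = 0.0411). On a principal component plot of 13339 probe sets, the first component took up 47.4% of the variance, naive 5 lay among the tPA arrays at 16.3, and array 2 of the tPA group lay farthest out at 73.7.

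The blood of the tPA rats showed 1611 of 31042 probe sets called, or 5.19%. A probe set was called at a limma p of at most 0.01 with a fold of at least 1.2, the thresholds the study set for its comparisons of single groups. Of these, 1073 were higher with tPA (3.46%) and 538 were lower (1.73%). Centring each array on its median turned this split into 760 higher and 760 lower, and quantile scaling gave 777 higher and 680 lower. After Benjamini-Hochberg adjustment 4 probe sets passed 0.05, and 7815 had an unadjusted p under 0.05. Without naive 5, 2752 of the 31042 probe sets were called (1786 higher, 966 lower) and 1158 passed adjustment. Calls thus rose over all probe sets, and the list counts without naive 5 given below stand beside that rise. With the hybridization control level as a covariate, 231 probe sets were called. Among 14217 genes with 1 probe set each, 4.02% were called higher and 2.34% lower, and the median log2 difference was -0.00311, with 48.6% of genes positive. The groups did not overlap, with all tPA arrays higher, in 0.76% of genes and, with all tPA arrays lower, in 2.1% of genes. These shares are the background for the gene lists that follow.

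The list medians farthest from 0 were those of T cells, upward, and of red cells, downward. Their levels went with the hybridization control level from array to array. Over the 12 arrays the mean of the 67 measured red cell genes had r = 0.982 and rho = 0.986 with the control level, and within the groups r was 0.988 on the tPA arrays and 0.98 on the naive arrays. The mean of the 23 measured T cell genes had r = -0.866 and rho = -0.811 over the 12 arrays, -0.926 on the tPA arrays and -0.556 on the naive arrays. Without the 2 arrays of each set farthest from its median control level, the T cell relation was -0.892 over 10 arrays but 0.0657 within the 4 remaining tPA arrays, and the red cell relation was 0.969, 0.895 and 0.63 for all, tPA and naive arrays. The points are arrays that share their scaling, and these values are a description. The control level itself differed between the groups and went with the red cell mean. A fit with this level as a covariate therefore cannot tell the group and the control level apart, and its values are a description. The part of the control level in the differences below was not tested.

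**Figure D1:**
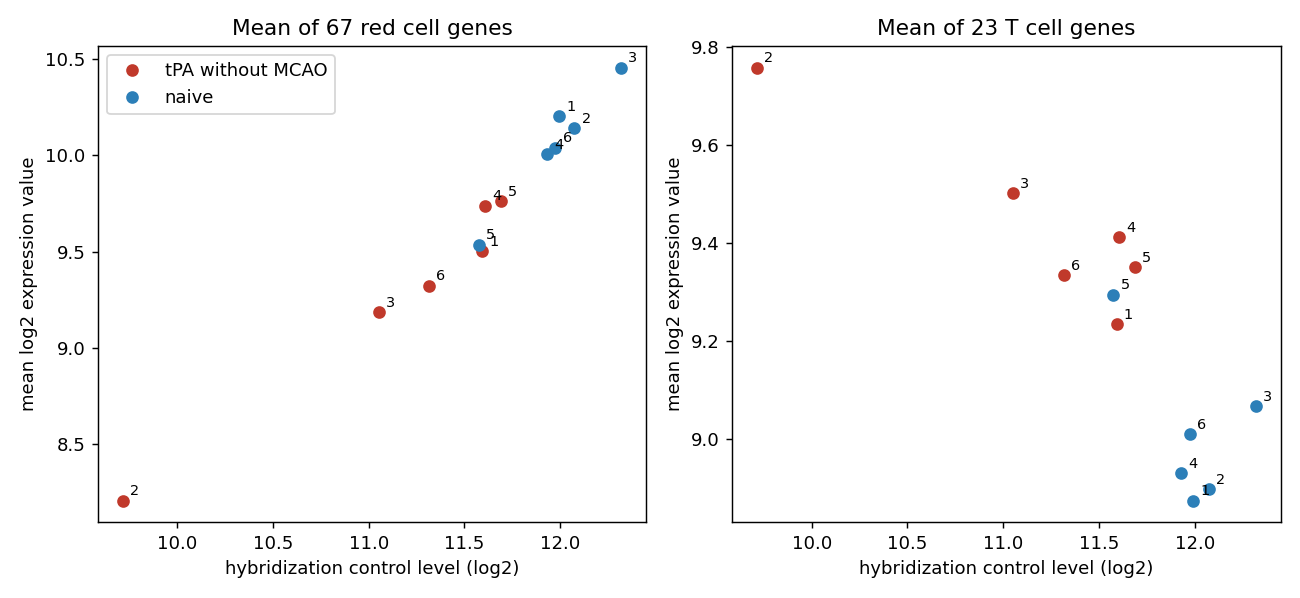
Mean log2 expression of the red cell genes (left) and of the T cell genes (right) on the vertical axes against the hybridization control level (log2) of each array on the horizontal axes, for the 6 tPA without MCAO arrays (red) and the 6 naive arrays (blue), numbered by replicate. Red cell genes go up with the control level (r = 0.982), tPA array 2 is at the low end, and naive 5 lies among the tPA arrays.

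**Figure D2:**
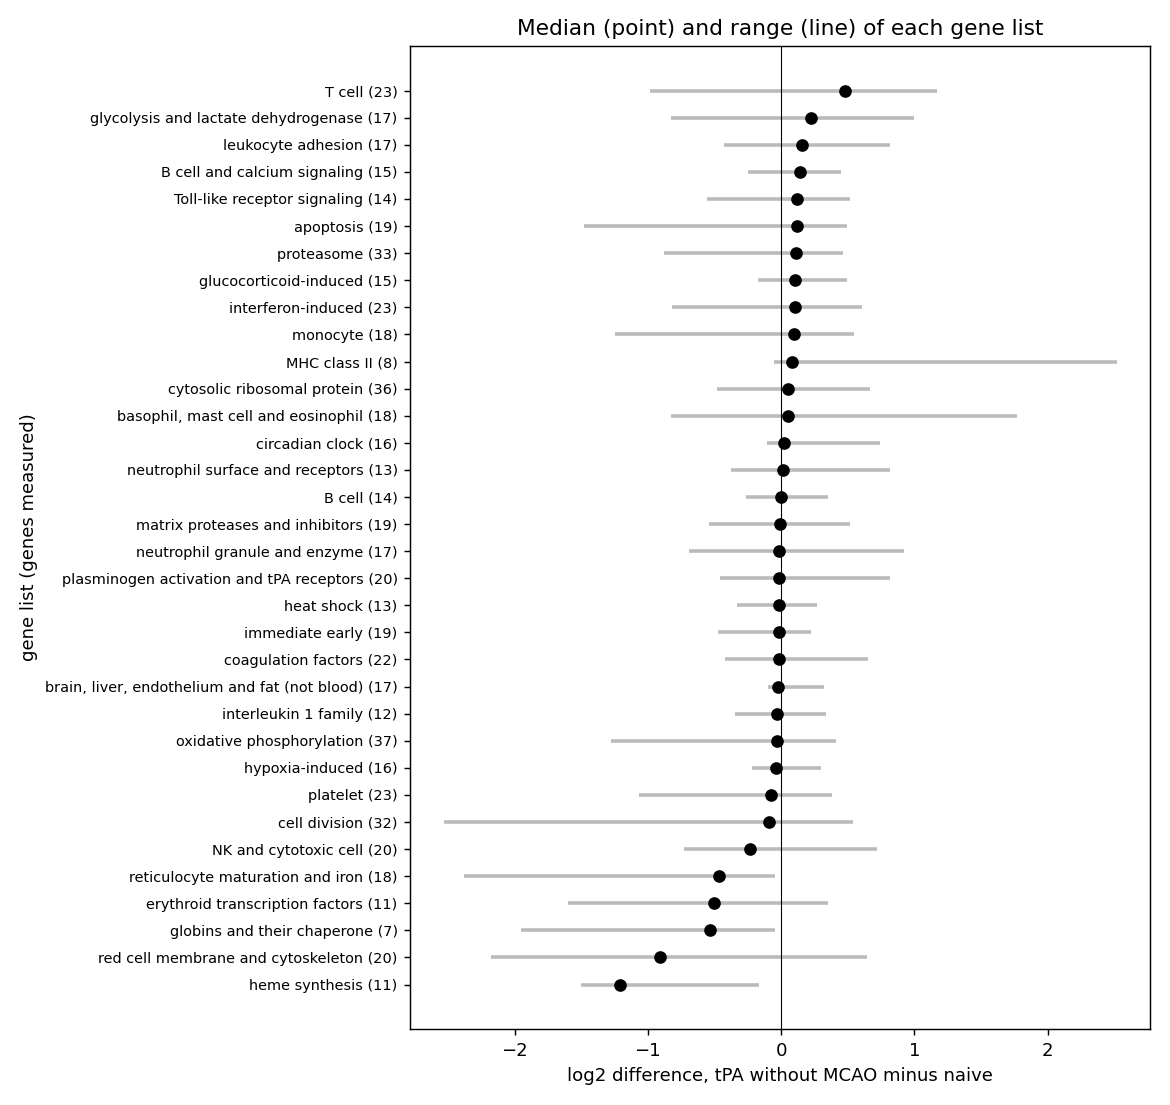
Median (point) and range (line) of the log2 difference, tPA without MCAO minus naive, of the genes in each of 34 lists, with the number of measured genes in brackets on the vertical axis. T cell genes have the highest median, 0.48, and heme synthesis genes the lowest, -1.21.

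T cell genes were higher in the blood of tPA rats. Of 23 measured members, 13 were called higher and none lower, against a background of 4.02% and 2.34%, and 22 of 23 differences were positive. The median log2 difference was 0.48, beside -0.00311 over all genes. Cd2, an adhesion molecule of T and NK cells, read 10.22, 10.37 and 10.56 log2 at its lowest, median and highest on the tPA arrays and 9.57, 9.72 and 10.06 on the naive arrays. All tPA arrays lay above all naive arrays. The difference was 0.61 (SE 0.0836, limma adjusted p = 0.0688), a fold of 1.53.

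Icos, a costimulatory receptor of activated T cells, read 8.46, 8.99 and 9.03 with tPA and 7.92, 8.25 and 8.53 in naive rats. Array 5 of the tPA group was the low one and fell just below the highest naive array. Its difference was 0.68 (SE 0.122, limma adjusted p = 0.106). Camk4, which the study names and which encodes a kinase switched on by calcium and calmodulin, read 6.43, 6.57 and 6.73 with tPA and 4.88, 5.34 and 6.15 in naive rats, with no overlap. Its difference of 1.17 (SE 0.211, limma adjusted p = 0.106) was the largest of the list. A second probe set of Camk4 differed by 0.02, so the call holds for the brighter one.

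The signalling chains of the T cell receptor were called too. Over the 4 fixed T cell markers the mean level ran from 11.39 to 11.78 on the tPA arrays and from 10.96 to 11.4 on the naive arrays. Cd3e, Cd3d and Cd3g rose by 0.51, 0.52 and 0.41, Cd247 rose by 0.52, and Lck, the kinase that starts receptor signalling, rose by 0.55. Cd3e read 11.71, 11.88 and 12.08 with tPA and 11.19, 11.3 and 11.8 in naive rats, where the value of 11.8 belongs to naive 5 and the other naive arrays ended at 11.34. Tcf7, a transcription factor of naive and memory T cells, rose by 0.64, and the tPA arrays, from 12.37 to 13.23, all lay above the naive arrays, from 11.77 to 12.35. Cd8a and Cd8b, the co-receptor of cytotoxic T cells, rose by 0.35 and 0.46. Cd4 was dimmer and was not called (difference 0.33, limma adjusted p = 0.29). Trat1, an adaptor of the receptor complex, was the only member with a negative difference (-0.99) and was not called. All of these apart from Cd3e were picked for mention after their values were seen.

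**Figure D3:**
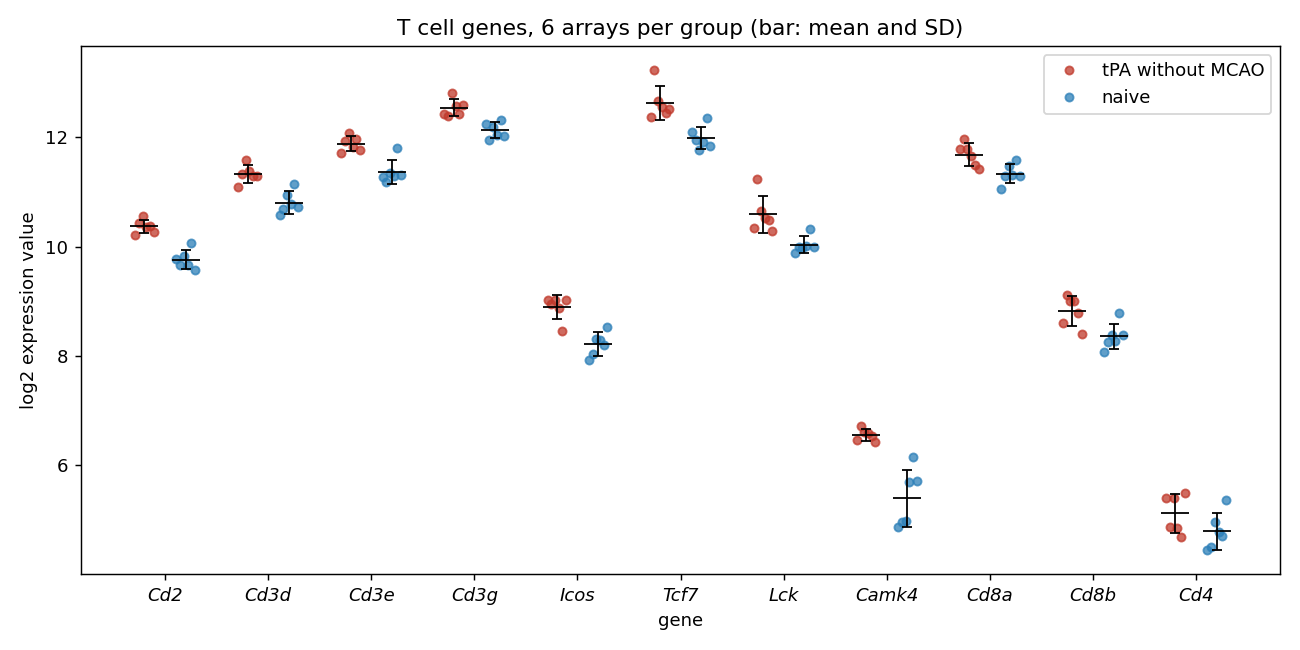
Log2 expression of 11 T cell genes on 6 tPA without MCAO arrays (red, left) and 6 naive arrays (blue, right), with the mean and SD as black bars. Cd2, Cd3g, Tcf7 and Camk4 show no overlap between the groups, and Cd4 shows a wide overlap.

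No T cell gene passed an adjusted p of 0.05 on the 12 arrays, and 9 passed without naive 5, where 15 were called. Without tPA array 2, 11 were called higher and 1 lower, and the median was 0.404. With the control level as a covariate the median was 0.269, and 7 genes were called higher and 1 lower. Set against anesthesia arrays, which share the tPA arrays with this comparison, 18 members were called higher and none lower, against 11.2% and 5.88% of all genes, and the median was 0.738.

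Red cell genes were lower in the blood of tPA rats. Of 67 measured members in 5 lists, 63 had a negative difference and 9 were called lower, none higher, against 2.34% of all genes called lower. The median was -0.734. No gene of these lists passed an adjusted p of 0.05. The mean level of the 3 measured red cell markers ran from 12.3 to 13.69 on the tPA arrays and from 13.48 to 14.05 on the naive arrays, and tPA array 2 had the lowest mean of the 67 genes. With the control level as a covariate the median was -0.00553 and 1 gene was called. Without tPA array 2 the median was -0.502 and 15 genes were called lower, and without naive 5 it was -0.844 with 19 called.

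The sequences before the starts of the called red cell genes that fell most and have an entry in the RefSeq promoter table are shown because erythroid genes are known to be bound by GATA1, at the letters AGATAA or TTATCT, and by KLF1, at CACCC or GGGTG. Each is the 250 bases before the start, from RefSeq on GRCr8 (Plek2 at chr6:103452372-103452621 and Hbe1 at chr1:167696281-167696530, both on the minus strand), written 5′ to 3′ on the strand of the gene, with matches to these letters in capitals.
Plek2: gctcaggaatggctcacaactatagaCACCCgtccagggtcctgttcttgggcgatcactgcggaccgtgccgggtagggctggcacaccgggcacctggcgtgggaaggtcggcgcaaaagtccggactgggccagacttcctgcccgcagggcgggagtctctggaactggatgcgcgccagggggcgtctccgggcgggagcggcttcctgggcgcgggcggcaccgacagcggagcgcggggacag
Hbe1: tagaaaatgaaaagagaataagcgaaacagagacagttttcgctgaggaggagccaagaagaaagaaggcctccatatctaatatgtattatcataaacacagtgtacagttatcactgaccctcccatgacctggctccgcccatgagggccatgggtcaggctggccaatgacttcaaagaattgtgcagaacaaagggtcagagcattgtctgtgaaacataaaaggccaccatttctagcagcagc

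Of the 67 red cell genes, 49 had a promoter in the table. AGATAA or TTATCT stood in 6 of them (12.2%), beside 10.3% of all 33469 promoters, and CACCC or GGGTG in 30 (61.2%), beside 49.2% of all. Both motifs were searched on both strands in the same 250 bases. Each gene of a list counts once, by its first promoter in the table, whereas the share of all promoters is over every entry. Of the called red cell genes, 7 had a promoter in the table, and 0 of these held AGATAA or TTATCT and 6 held CACCC or GGGTG (85.7%). Variants of the GATA letters other than AGATAA and TTATCT were not searched, so the count of 0 holds for these letters only. The T cell list held these letters in 11.1% and 66.7% of 18 promoters. A match is a run of letters and not a site.

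Heme synthesis genes had the lowest median of all lists, -1.21, and all 11 differences were negative. Alad, the enzyme that joins aminolevulinate into porphobilinogen, read 6.19, 8.06 and 8.72 log2 with tPA and 8.27, 9.4 and 10.27 in naive rats. The groups overlap only through naive 5, at 8.27. Alad fell by 1.49 (SE 0.452, limma adjusted p = 0.126), and the same fit with the control level gave -0.43. Slc25a38, the mitochondrial glycine carrier, fell by 1.33 (limma adjusted p = 0.126), with 6.88, 8.55 and 9.44 with tPA and 8.85, 9.79 and 10.62 in naive rats. Alas2, the rate-limiting enzyme of erythroid heme synthesis, was picked after its values were seen. It was very bright, at 14.07 to 14.52 with tPA and 14.43 to 14.63 in naive rats, and was not called (difference -0.17).

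Globins were lower too, with 2 of 7 measured members called and a median of -0.53. Hbe1, the embryonic epsilon-like globin, read 3.87, 6.45 and 6.97 with tPA and 6.92, 7.97 and 8.73 in naive rats, and fell by 1.95 (SE 0.538, limma adjusted p = 0.126). Hbg1, a fetal-type globin, fell by 0.53 with no overlap of the groups (2.39 to 2.57 with tPA and 2.82 to 3.33 in naive rats), but it is dim throughout. Hbb, the adult beta globin, was picked after its values were seen and had 13.69, 14.58 and 14.62 with tPA and 14.62, 14.75 and 14.86 in naive rats, and it was not called (difference -0.32).

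Among 20 membrane and cytoskeleton genes of the red cell 19 differences were negative, with a median of -0.912, but a single gene was called lower. Dmtn, a protein that bundles actin under the red cell membrane, read 3.38, 5.82 and 7.61 with tPA and 6.39, 8.01 and 8.6 in naive rats, a fall of 2.18 (limma adjusted p = 0.126). Slc4a1, the band 3 anion exchanger, was picked after its values were seen, differed by -1.22 and was not called. Of 11 erythroid transcription factors 8 differences were negative and 3 positive, and a single gene was called. This gene, Zfpm1, the GATA1 partner FOG1, fell by 0.98 without overlap (2.56 to 2.96 with tPA and 3.28 to 4.51 in naive rats) at a dim level. Gata1 and Klf1 differed by -1.13 and -1.2 and were not called.

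Among 18 reticulocyte and iron genes all differences were negative and 3 were called. Plek2, which helps red cell precursors shed the nucleus, read 2.69, 5.61 and 6.82 with tPA and 6.29, 7.75 and 9.0 in naive rats, and fell by 2.38 (SE 0.707, limma adjusted p = 0.126). Pim1, a kinase of cytokine signalling, fell by 1.64 and Blvrb, biliverdin reductase B, fell by 1.07. Set against anesthesia arrays, which again share the tPA arrays, 29 of the 67 were called lower with tPA and none higher, against 5.88% and 11.2% of all genes, and the median was -0.984.

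**Figure D4:**
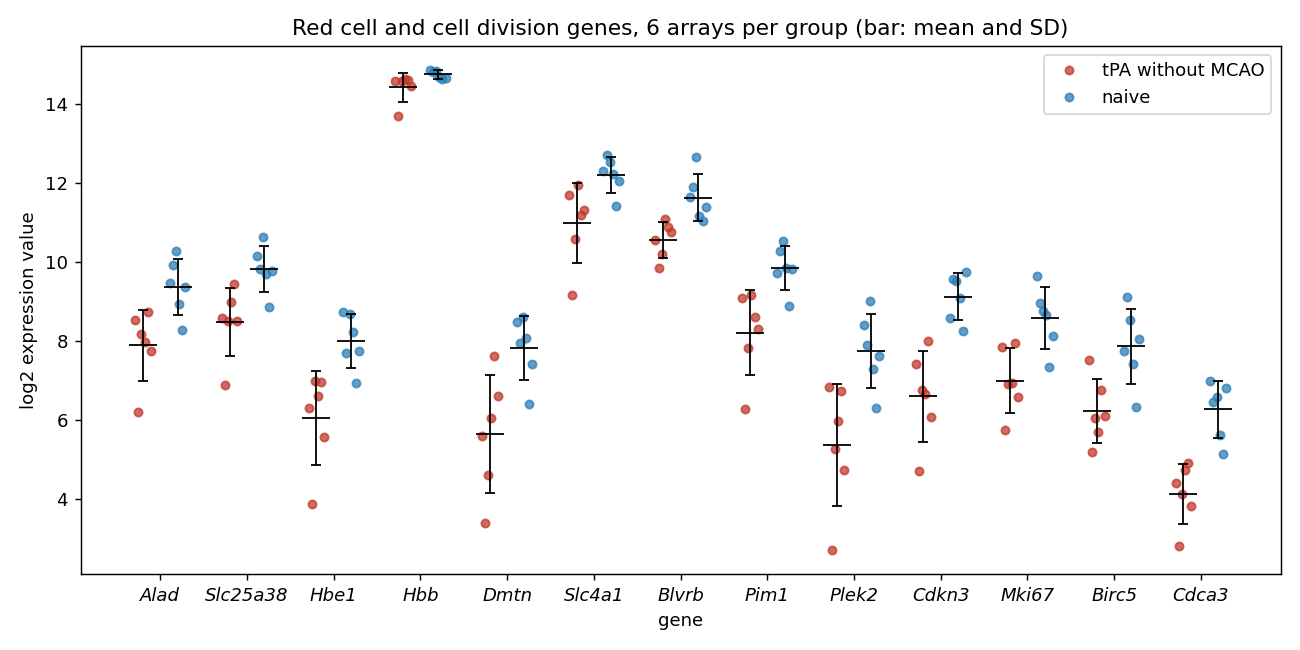
Log2 expression of 9 red cell genes and 4 cell division genes on 6 tPA without MCAO arrays (red, left) and 6 naive arrays (blue, right), with the mean and SD as black bars. In all 13 genes tPA array 2 is the lowest tPA point, and Cdkn3 and Cdca3 show no overlap between the groups.

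Cell division genes were mixed as a list: 4 of 32 measured members were called lower and 1 higher, and the median was -0.0877. Without naive 5, 10 were called lower and 3 higher, and 4 passed adjustment. Against anesthesia arrays, which share the tPA arrays, the counts were also 10 and 3, beside 5.88% of all genes called lower and 11.2% higher. With dim probe sets removed the median was -0.491. Cdkn3, a phosphatase that acts on cyclin-dependent kinases, read 4.69, 6.69 and 8.0 with tPA and 8.24, 9.3 and 9.73 in naive rats. All tPA arrays lay below all naive arrays, and Cdkn3 fell by 2.53 (SE 0.508, limma adjusted p = 0.121). Mki67, the proliferation antigen, fell by 1.6 and Birc5, a survivin that guides chromosome segregation, fell by 1.65. Mki67 overlapped between the groups only through naive 5 at 7.34, and Birc5 through naive 5 at 6.33 and naive 4 at 7.41. Cenpw, a centromere protein picked after its values were seen, fell by 2.43. Stmn1, which destabilises microtubules and is also expressed in lymphocytes, rose by 0.54 with no overlap.

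Neutrophil, monocyte and B cell genes stayed near the background in the comparison with naive rats. Of 17 neutrophil granule genes 1 was called (Padi4, which citrullinates histones, at a dim level, difference 0.57), and none of 13 neutrophil surface genes, 18 monocyte genes, 14 Toll-like receptor genes, 12 interleukin 1 family genes and 14 B cell genes. Medians of these lists lay between -0.028 and 0.122. For NK cells the median was -0.23, with 16 of 20 differences negative, and the only called gene moved the other way: Klrk1, the activating receptor NKG2D, read 7.82, 8.41 and 9.02 with tPA and 7.29, 7.83 and 8.01 in naive rats (difference 0.72, limma adjusted p = 0.126). This call was lost without tPA array 2. Gzmb, the cytotoxic protease granzyme B, which the study names, had a difference of -0.58 and was not called. Of 23 platelet genes none was called, and the median was -0.0724. Ppbp, a platelet chemokine, had a difference of -1.07 (limma adjusted p = 0.156). Against anesthesia arrays, which share the tPA arrays, 7 of the 23 platelet genes were called lower and none higher. Of all genes 5.88% were called lower and 11.2% higher there, and the platelet median was -0.452. In the same comparison 4 of 17 neutrophil granule and 2 of 13 neutrophil surface genes were called higher. So were 3 of 18 monocyte and 3 of 12 interleukin 1 family genes. The Toll-like receptor list had 1 higher and 1 lower, and the B cell list 1 higher. Medians of these lists, platelets aside, lay between 0.139 and 0.366.

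Basophil genes did not move together. Hdc, the histamine-forming enzyme of basophils and mast cells, rose by 1.77 (SE 0.486, limma adjusted p = 0.126): 4.37, 6.35 and 6.8 with tPA and 3.14, 4.1 and 5.59 in naive rats, with overlap. Mcpt8, a basophil protease of rodents, differed by 1.22 in the same direction and was not called (limma adjusted p = 0.13), whereas Cpa3, a mast cell protease and a fixed marker picked for mention after its values were seen, differed by -0.83, with naive 2 highest at 6.99. In all, 1 of 18 members was called, with 11 differences positive and 7 negative. Only 6 members had a mean of at least log2 4. The list median was 0.0482, and it was 0.357 with dim probe sets removed. RT1-Bb, a beta chain of rat MHC class II, had a median of 10.55 with tPA and 7.21 in naive rats, but its arrays fell into 2 levels: tPA array 5 and naive arrays 1, 2 and 3 lay at most at 3.23 and the other 8 arrays far above, up to 11.97. The difference of 2.52 was not called (limma adjusted p = 0.486), and none of the 8 MHC class II genes was.

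In the plasminogen system, on which tPA acts, none of 20 measured members was called, and the median was -0.0136. Plat, the rat tPA gene, was dim at 2.92 to 3.39 with tPA and 2.95 to 3.61 in naive rats. Anxa2, the receptor annexin A2, read 12.15, 12.58 and 12.86 with tPA and 11.86, 12.34 and 12.45 in naive rats (difference 0.34, limma adjusted p = 0.179), and S100a10, its partner, differed by 0.11. Plaur, Plgrkt and Eno1, further plasminogen or urokinase receptors, differed by 0.19, 0.24 and 0.05, and Lrp1 and Lrp8, clearance and signalling receptors, by 0.13 and 0.23. Itgam and Thbd, a leukocyte integrin chain and thrombomodulin, differed by 0.81 and 0.63. The inhibitor genes Serpinb2, Serpine2, Serpinf2 and Serpini1 differed by -0.23, -0.1, -0.23 and -0.46, and Serpinb2 did not overlap, with 2.95 to 3.12 with tPA and 3.14 to 3.47 in naive rats at a dim level. Plg, Plau, Cpb2, Egfr, Pdgfc and Pdgfra were dim, with group means between 2.27 and 2.92. Coagulation factors gave 1 of 22 called, Ggcx, the vitamin K carboxylase, with a difference of 0.44 at a dim level, a call lost without tPA array 2 and without naive 5.

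Of the genes the study names, in any connection, only Camk4 was called here. Icam2, an adhesion ligand of endothelium and leukocytes, differed by 0.53 (limma adjusted p = 0.137) and Xdh, xanthine dehydrogenase, by 0.55 (limma adjusted p = 0.138). Pik3cd, a leukocyte phosphoinositide kinase, differed by 0.4 and Itgb2, a leukocyte integrin chain, by 0.32. Mmp9 and Timp3, a matrix protease and a protease inhibitor, differed by -0.19 and -0.35, and Tlr2 and Il1r2, an innate receptor and a decoy receptor of interleukin 1, by -0.05 and -0.3. Anxa1, Jag1 and F5 differed by -0.41, -0.1 and -0.11, Fcgr2b, Fgr and Slpi by 0.17, 0.3 and 0.25, Orai1 by 0.18, Serpinb6a by 0.61, and Csf1 and Col17a1 by 0.03 and 0.02. Bcl6 had equal group means of 10.17.

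Medians of the stress and housekeeping lists lay between -0.0348 and 0.228. Interferon-induced genes gave 2 of 23 called, Mx1 and Irf9, which rose by 0.56 and 0.47, and the glucocorticoid-induced list gave 2 of 15, Fkbp5 and Sgk1, which rose by 0.47 and 0.34. Neither interferon call and neither glucocorticoid call held without tPA array 2, and the glucocorticoid calls were lost without naive 5 too. The glucocorticoid median of 0.105 was 0.001 without tPA array 2. None of 19 immediate early, 16 hypoxia-induced and 13 heat shock genes was called. Of 16 clock genes Tef, a transcription factor of the circadian output, rose by 0.74. Cd47, the self-recognition signal of red and white cells, fell by 0.43 as the called member of 17 adhesion genes, a call lost without tPA array 2, and Casp6 rose by 0.49 as that of 19 apoptosis genes. In glycolysis Pfkp and Ldhc rose by 0.41 and 0.9 and Hk1 fell by 0.82. Ldhb, picked after its values were seen, differed by 1.0 and was not called, with 9.02, 10.14 and 11.08 with tPA and 8.4, 9.15 and 9.59 in naive rats, whereas anesthesia rats read 4.0, 6.86 and 8.52. Ribosomal protein genes gave 4 of 36 called higher, Rpl5, Rpl6 and Rpl7a by 0.29, 0.4 and 0.28 among them, and none lower. Without naive 5, 12 ribosomal protein genes were called higher and 13 passed adjustment. Against anesthesia arrays 11 were called higher, beside 11.2% of all genes. The proteasome list gave 3 of 33 higher (Psmd1, Psmd11 and Psmd14) and 1 lower (Psmd8), and oxidative phosphorylation gave 2 of 37 higher and 4 lower, with Atp5f1c at 0.41 and Cox4i1 at -0.67. Without naive 5 the proteasome list gave 7 higher and 2 lower, and oxidative phosphorylation 5 higher and 7 lower. That omission also raised the calls over all probe sets, from 1611 to 2752. Without tPA array 2 the proteasome list gave 1 higher and 1 lower, and oxidative phosphorylation 2 higher and 6 lower.

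The only named gene past adjustment on the 12 arrays was Usp40, a ubiquitin-specific protease. It read 4.58, 4.75 and 4.96 log2 with tPA and 3.4, 3.51 and 3.79 in naive rats, and all tPA arrays lay above all naive arrays. The difference was 1.23 (SE 0.0811, limma adjusted p = 0.000407), a fold of 2.34, and it was 1.33 with the control level as a covariate and 1.35 against anesthesia rats, whose arrays lay between 3.15 and 3.89. These values are those of the Usp40 probe set of smallest p, and its other probe sets differed by 0.51 to 0.61. Usp40 was dim in naive rats, with a mean of 3.54. The other 3 probe sets past adjustment have no gene symbol and differed by 0.8, 0.74 and -1.46. Those that rose were dim in both groups, with means of 3.82 and 3.93 with tPA and 3.02 and 3.2 in naive rats.

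Over all 31042 probe sets, called or not, 1000 did not overlap between the groups, 222 higher and 778 lower with tPA. Of these, 273 were also called, 204 higher and 69 lower, so most of those that lay lower without overlap missed the fold or p threshold. Some genes among them, picked after their values were seen, are given as examples with the probe set of smallest p. Gng12, a G protein gamma subunit, fell by 2.12 (limma adjusted p = 0.0941), with 6.53 to 7.41 with tPA and 7.55 to 9.94 in naive rats, although another probe set differed by 0.12. Cdca3, a trigger of mitotic entry, fell by 2.13 and Poc1b, a centriole protein, fell by 1.95. Dele1, a mitochondrial stress relay, rose by 0.97, and Znrf1, a ubiquitin ligase, rose by 0.48. With the control level as a covariate Gng12 differed by -1.85, Cdca3 by -1.27 and Dele1 by 0.73, whereas Plek2 differed by -0.68 and Dmtn by -0.7.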

How the data were processed

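Blood of 42 rats, 6 in each of 7 groups, had been hybridized to Affymetrix rat arrays after amplification with whole blood reagents. The authors ran GC-RMA in Partek (tools named in the submitters' processing notes) and deposited 1 log2 value per probe set and array, so scaling across arrays and background removal are already in every level. The scanned arrays were not used here, and the number of arrays limits the precision. No batch, litter or scan is named in the sources used here.

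Of 31099 probe sets, 57 controls were set aside and 31042 tested. From the platform annotation 20826 had 1 symbol, 436 several and 9780 none. Genes with several probe sets are represented by the brightest over 42 arrays. Usp40 and the examples said to be given with the probe set of smallest p are exceptions. The 6 tPA and 6 naive arrays were fitted in limma 3.58.1 (R 4.3.3, lmFit and eBayes) without a block, and p-values were adjusted by Benjamini-Hochberg over all probe sets. Control levels were compared by exact permutation over all 924 divisions of the 12 arrays. Fits were tested on simulated data. Alternatives were other variance models, array weights, all 42 arrays, centring, quantile scaling, removal of dim probe sets (mean under log2 4 on the 12 arrays), a fold of 1.5, the control level as a covariate, anesthesia rats in place of naive rats, a replicate block and omission of each array.

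The members, the 34 gene lists (633 of 778 entries measured) and the tests were chosen with earlier results of these data known. Genes named come from those the study names, called genes past adjustment without overlap (mean of at least log2 4 in the higher group), up to 4 genes of smallest p in each list, and the whole plasminogen list. Others are said to be picked after their values were seen. Many list genes of smallest p that were not called are left out, which favours called genes among those named. The result of 1 gene that the study names is not reported here.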

Additional observations from a re-analysis of the deposited data

Results flagged for a closer look

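In 246 groups of 6 arrays examined (the array measures and the named genes, in each group), 1 array stood far from the other 5 in 23, where chance gives about 1 in 20. Array 2 of the tPA group was that array in 11 of them and naive 5 in 2, and the part of either array in the results was tested only by leaving it out.

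On tPA array 2 the hybridization control level was 9.716 (next 11.05) and the red cell mean 8.208 (next 9.187). The same array was lowest for Slc25a38 at 6.881, Hbb at 13.69, Alas2 at 14.07 and Klf1 at 8.435. It was highest for Tcf7 at 13.23, Cd247 at 11.86, Irf9 at 10.24, Psmd11 at 10.003 and Col17a1 at 4.115. Naive 5 was highest of its group for Cd3e at 11.8 and Lck at 10.33.

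Other tPA arrays that stood apart were array 5 for Icos at 8.461 and RT1-Bb at 2.491, array 4 for Lrp8 at 3.419 and Serpine2 at 2.74, array 6 for Orai1 at 7.856 and array 1 for Cpb2 at 2.532. Other naive arrays were array 6 for Egfr at 3.882 and Tlr2 at 9.381, array 2 for Plg at 2.813 and array 4 for Ggcx at 3.069.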

How the results depend on the processing

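The count of called probe sets (1611: 1073 higher, 538 lower, 4 past adjustment) was 231 with the control level as a covariate (152 higher, 79 lower, 1 past adjustment), 4267 against anesthesia rats (2841, 1426, 3884), 814 at a fold of 1.5 (409 higher) and 2443 without the lowest array of each group, an alternative chosen after seeing the data (945 lower, 878 past adjustment). With a replicate block it was 806 (644, 162, 0 past adjustment at 5062 probe sets of unadjusted p under 0.05). The sources used here do not state that the numbers in the titles pair the rats. Deviations of same-numbered arrays correlated between -0.23 and 0.175, beside a median of 0.0431 for other pairs. So few correlations cannot settle whether the rats were paired. Past adjustment were 1 with the methods' test, 257 with all 42 arrays and 2 after centring. Omitting 1 array gave 954 to 2752 called, 648 to 1786 higher, 277 to 966 lower and 1 to 1158 past adjustment, with naive 5 giving the highest each time. The number called moved by over 1.5 times without tPA array 3 (1067) and without naive 1 (1032), 2 (954), 3 (983) or 5 (2752).

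The T cell median of 0.48 was 0.269 with the covariate and 0.738 against anesthesia rats, and 13 called genes became 7 and, with all 42 arrays, 6 (9 to 15 on omitting 1 array). The red cell median of -0.734 was -0.00553 with the covariate. The 9 red cell genes called lower became 17 with an intensity trend, 33 with all 42 arrays, 16 after centring, 19 without dim probe sets, 1 with the covariate, 29 against anesthesia rats, 2 with the replicate block and 30 without the lowest arrays (3 to 19 on omitting 1 array: 3 or 4 without tPA array 3 or 6 or naive 1, 2 or 3, and 14 to 19 without tPA array 2, 4 or 5 or naive 5). The control level gave -0.0942 with cre in its place, and the 3' minus 5' difference ran from 0.122 to 0.36 on omitting 1 array.

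Named genes that were not called changed sign as follows. With the covariate: Anxa1 0.06, Bcl6 0.0277, Col17a1 -0.484, Csf1 -0.369, Fcgr2b -0.0881, Jag1 0.0939, Lrp1 -0.0931, Tlr2 0.145, Hbb 0.0482, Alas2 0.00861 and RT1-Bb -0.288. Against anesthesia rats: Bcl6 0.264, Eno1 -0.0253, Il1r2 0.259, Mmp9 0.067, Pdgfc 0.0097, Plat 0.0678, Serpinb6a -0.606, Serpinf2 0.277, Tlr2 0.0978, RT1-Bb -1.26 and Trat1 0.0561. With array weights: Col17a1 -0.163, Csf1 -0.0844, Eno1 -0.0172, Lrp1 -0.0116 and Lrp8 -0.05. After centring: Col17a1 -0.0494, Csf1 -0.038 and Eno1 -0.0147. After quantile scaling: Bcl6 0.0393, Col17a1 -0.0563, Csf1 -0.114 and Pdgfc 0.00989. Without the lowest arrays: Col17a1 -0.0834, Csf1 -0.237 and Lrp1 -0.117. On omitting 1 array: Bcl6 -0.091 to 0.0879, Col17a1 -0.164 to 0.103, Csf1 -0.157 to 0.202, Eno1 -0.0264 to 0.108, F5 -0.253 to 0.0043, Jag1 -0.221 to 0.00327, Lrp1 -0.0323 to 0.358, Pdgfc -0.0055 to 0.00163 and Tlr2 -0.135 to 0.0812. No called gene changed sign under any of these alternatives. The causes were not tested.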
